A study of Mus musculus with 12 samples.

Results

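The NF-kB genes described here are 10 of the 43243 gene names measured by RNA-seq in mouse prostate organoids. They were taken by name from a fixed list: the subunit genes Nfkb1, Nfkb2, Rela and Relb, the inhibitor and feedback genes Nfkbia, Nfkbie, Tnfaip3 and Birc3, and the target genes Tnfaip2 and Icam1. The list was chosen with earlier results of these data known. All 10 genes were found in every library. The organoids are Matrigel cultures grown from digested prostate tissue in medium with EGF at 5 to 50 ng/ml, and they carried a mutant SPOP (SPOPmut, 6 libraries) or did not (SPOPwt, 6 libraries). SPOP is the substrate-binding part of a ubiquitin ligase, and the series was set up to find expression differences that go with its mutation.

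Per the labels' protocols, the libraries came from inducible lines, in which the recombinase CreERT2 was switched on with 1 µM 4-hydroxytamoxifen overnight. In Line_A, read here as the protocols' model A, cells received a CreERT2 construct by virus and were selected with puromycin. In Line_B, read as model B, the cells came from mice with a TMPRSS2-CreERT2 transgene. SPOPmut cells were sorted for GFP and SPOPwt cells were sham sorted, so mutant SPOP and selection on GFP cannot be told apart as sources of a difference. The protocols give the mutant allele as R26F133V where they describe a further line, made with Cre under the Probasin promoter, and do not say whether the SPOPwt cells also received the tamoxifen metabolite. By the same source, 5 pairs of mutant and control came from model A and 1 pair came from model B, and the label of a library does not say which. Both groups are numbered S0 to S5. Whether the pairs are separate cultures or animals is not labelled, so the p-values reflect the spread among these libraries alone, part of which may be technical.

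NF-kB is a family of dimeric transcription factors that answer cytokines, microbial products and stress. In resting cells inhibitor proteins hold the dimers in the cytoplasm, and phosphorylation and breakdown of the inhibitor lets them enter the nucleus. Several targets of the pathway, the inhibitors among them, feed back on it. The activity of NF-kB is set mainly on its proteins, which RNA levels do not measure.

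Markers of cell type separated pair S5 from the others. In the 2 libraries of S5 the summed level of 5 basal epithelial markers was 2128 to 3085 RPKM (reads scaled to transcript length and library size), led by Krt5 (1194 to 1705 RPKM), and that of 8 mesenchymal markers was 0.30 to 0.51 RPKM. In S0 to S4, 10 libraries in all, the basal sum was 0.92 to 8.30 RPKM, led by Krt15, and the mesenchymal sum was 767 to 1488 RPKM, led by the collagen gene Col1a1. The 5 luminal epithelial markers summed to 17.6 to 139 RPKM there, led by Krt19, and to 1482 to 1491 RPKM in S5, led by Krt18. Epcam, an epithelial adhesion gene, was at 1.28 RPKM or less in S0 to S4 and at 88.6 and 96.3 RPKM in S5, so this 1 marker was nearly absent from S0 to S4. The summed level of 11 immune markers was 10.7 to 28.6 RPKM over the 12 libraries. Of these 11, 6 were under 0.1 RPKM throughout, among them Ptprc, which marks all blood leukocytes. Others were present in every library: the leading gene Cd14 at 5.3 to 20.4 RPKM, Cd68 at 2.1 to 4.7 RPKM and Csf1r at 1.1 to 3.8 RPKM. The 5 endothelial markers, led by Pecam1, summed to 0.030 to 2.02 RPKM. The estimated depth was 28.3 to 41.0 M reads (M for mega) per library, on a scale that rests on the range searched. In these bulk samples, fewer cells of a type and less RNA per cell cannot be told apart.

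Transcripts of the canonical subunits and of the main inhibitor were among the higher of the 10 genes, and those of the adhesion gene were the lowest by median. By the median over 12 libraries, on the per-length RPKM scale, Nfkbia stood at 49.8, Rela at 43.3, Tnfaip2 at 41.7, Nfkb2 at 37.6 and Nfkb1 at 35.4 RPKM. Tnfaip3 followed at 9.77, Relb at 9.12, Nfkbie at 9.10, Birc3 at 3.75 and Icam1 at 0.77 RPKM. The ranges of all neighbours in this order overlapped. Rela varied least, by 1.89-fold between its lowest and highest library, and Nfkbie most, by 24.8-fold. The lowest level of Icam1, 0.24 RPKM, corresponded to about 40 reads at the estimated depth.

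**Figure D1:**
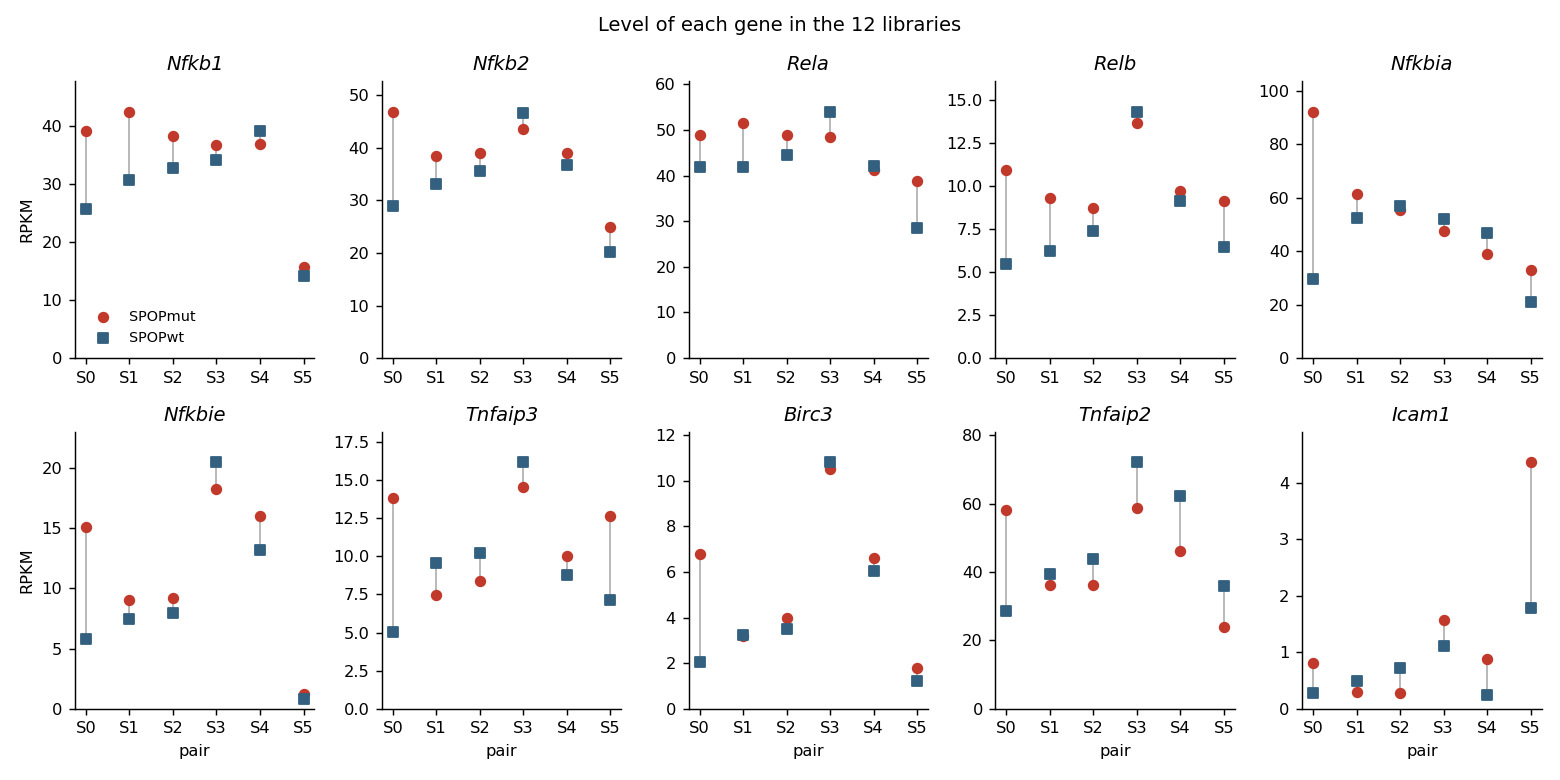
Level of each of the 10 genes in RPKM (vertical axes, each from 0) in the 6 pairs (horizontal axes). Circles are SPOPmut libraries, squares are SPOPwt libraries, and a grey line joins the 2 libraries of a pair. In S0 the mutant lies above the control for all 10 genes, and in S5 Nfkbie and Birc3 are lowest and Icam1 is highest.

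Over the 6 pairs, none of the 10 genes differed between SPOPmut and SPOPwt at an adjusted p under 0.05. The test was limma on log2(RPKM + 1) with the pair as a block, and Benjamini-Hochberg adjustment ran over all 13600 genes at 1 RPKM or more in at least 6 libraries. Of the 10 genes, 9 passed that filter on level, and Icam1 did not. limma called 0 of the 13600 genes higher and 0 lower (0 and 0% of the genes tested), with 761 at an unadjusted p under 0.05. Among the 9 genes, 2 had an unadjusted p under 0.05 (Nfkb1 and Relb), beside 5.60% of all genes tested. The mean difference was above 0 for 8 of the 9, beside 50.25% of all genes tested, and its median was 0.25, beside 0.00055 for all genes tested. Without pair S0 the median of the 9 was 0.12, with 8 of 9 above 0 beside 54.54% of all genes tested. Without S0 and S5 it was 0.061, with 6 of 9 above 0 beside 57.6%. All differences given as log2 are on the log2(RPKM + 1) scale, which understates the change of low genes.

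Among the subunits, Relb and Nfkb1 had the smallest p-values. Relb, the partner of the Nfkb2 product in the non-canonical pathway, stood at 10.9, 9.33, 8.73, 13.6, 9.70 and 9.13 RPKM in the SPOPmut libraries of S0 to S5. In the SPOPwt libraries it stood at 5.50, 6.25, 7.39, 14.3, 9.11 and 6.46 RPKM. The mutant was the higher of the pair except in S3, but the groups overlapped widely, with S3 above the other pairs in both. The log2 difference of Relb was 0.34 (SE 0.12, 95% confidence interval 0.068 to 0.62, limma adjusted p = 0.881), and 0.24 (SE 0.091) without S0.

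Nfkb1 encodes a precursor that is cut to the DNA-binding subunit which pairs with the Rela product. It stood at 39.1, 42.4, 38.4, 36.7, 36.9 and 15.7 RPKM in SPOPmut and at 25.7, 30.7, 32.7, 34.1, 39.1 and 14.1 RPKM in SPOPwt, in the order S0 to S5. The mutant was higher in 5 of 6 pairs, with S4 the exception, and both S5 libraries were far below the rest. The log2 difference of Nfkb1 was 0.24 (SE 0.095, limma adjusted p = 0.881), and 0.17 (SE 0.080) without S0.

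Nfkb2, the precursor of the non-canonical subunit, stood at 46.8 RPKM in the S0 mutant and 29.0 RPKM in its control, and its differences in the other pairs were -0.096 to 0.29. Its log2 difference over all pairs was 0.22 (SE 0.10), and 0.12 (SE 0.068) without S0. Rela, which carries the main activating domain of the canonical dimer, had the smallest log2 difference of the 4 subunits, 0.15 (SE 0.089), and 0.092 without S5. Rela had the higher level in the mutant library of 4 of 6 pairs, with differences from -0.15 in S3 to 0.43 in S5, and its S0 difference of 0.22 lay within the range of the other pairs. The limma adjusted p was 0.887 for both.

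The inhibitor and feedback genes had larger differences in S0 than the subunits. Nfkbia, the inhibitor that is degraded on stimulation and made again by NF-kB itself, stood at 92.1 RPKM in the S0 mutant and 29.7 RPKM in the S0 control. In S1 to S5 it stood at 61.3, 55.3, 47.5, 38.9 and 32.9 RPKM in SPOPmut and at 52.6, 56.9, 52.2, 46.9 and 21.0 RPKM in SPOPwt. The S0 mutant was the highest of the 12 libraries, and the S0 control was lower than all 8 libraries of S1 to S4. The mutant was higher in 3 of 6 pairs (S0, S1 and S5). The log2 difference of Nfkbia was 0.33 (SE 0.23, 95% confidence interval -0.19 to 0.86, limma adjusted p = 0.887). It was 0.080 (SE 0.12) without S0, and -0.056 without S0 and S5.

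The bases before the transcription start are shown for the members whose first listed start has 250 bases before it with no annotated exon: the inhibitors Nfkbia and Nfkbie, and the target Icam1. A second start of Tnfaip3 also has no annotated exon there and is not shown. They let a reader see the letters through which NF-kB is known to bind DNA. Capitals mark matches, on either strand, to the kB consensus or to a short form of it, GGNNNTTCC, which overlaps it. The sequences are RefSeq's, from GRCm38.p6.
Nfkbia, chr12:55492648-55492897, minus strand: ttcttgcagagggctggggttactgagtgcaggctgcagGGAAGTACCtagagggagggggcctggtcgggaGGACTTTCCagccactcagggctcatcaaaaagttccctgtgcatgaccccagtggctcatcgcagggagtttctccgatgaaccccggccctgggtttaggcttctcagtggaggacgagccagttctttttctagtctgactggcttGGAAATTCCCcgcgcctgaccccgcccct
Nfkbie, chr17:45555450-45555699, plus strand: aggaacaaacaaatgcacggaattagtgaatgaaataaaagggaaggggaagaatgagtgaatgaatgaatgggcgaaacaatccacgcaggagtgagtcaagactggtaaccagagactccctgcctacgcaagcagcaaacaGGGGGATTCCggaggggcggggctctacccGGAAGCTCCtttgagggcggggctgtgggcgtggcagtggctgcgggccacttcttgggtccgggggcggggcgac
Icam1, chr9:21015690-21015939, plus strand: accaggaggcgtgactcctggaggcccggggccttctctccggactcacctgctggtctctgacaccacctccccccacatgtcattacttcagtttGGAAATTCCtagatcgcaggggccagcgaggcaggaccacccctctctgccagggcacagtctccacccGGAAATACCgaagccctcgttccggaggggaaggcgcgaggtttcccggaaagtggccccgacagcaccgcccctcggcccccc
In Nfkbia, GGAAATTCCC matched the kB consensus at -29 to -20, counted from the start. In Nfkbie, GGGGGATTCC matched it at -106 to -97. Icam1 held the short form at -153 to -145 (GGAAATTCC, on both strands) and not the consensus. The RefSeq table held 8 of the 10 genes, with 11 start sites in all. Counted per gene, over any of its starts, the kB consensus was found in 4 of the 8 (Nfkbia, Nfkbie, Tnfaip3 and Nfkb2) and in 4.46% of the 27025 genes of the table. The short form was found in 6 of the 8 and in 17.6% of those genes. Counted per start, the shares of all 32851 start sites were 3.90% and 15.7%. Nfkb2 has 3 starts and Tnfaip3 has 2, and so more stretches in which a match can fall. The members were listed as NF-kB subunit, feedback and target genes, so a share above that of all genes can follow from that choice. A match describes these letters and does not show binding.

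Nfkbie, a second inhibitor of the same family, stood at 15.1, 9.01, 9.20, 18.2, 16.0 and 1.27 RPKM in SPOPmut and at 5.76, 7.43, 7.94, 20.4, 13.2 and 0.82 RPKM in SPOPwt, from S0 to S5. The mutant was higher in 5 of 6 pairs, S3 being the exception, while the level itself followed the pair more than the genotype. The log2 difference of Nfkbie was 0.35 (SE 0.16, limma adjusted p = 0.887), and 0.17 (SE 0.077) without S0.

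Birc3 encodes a ubiquitin ligase of the TNF receptor complex and is a well-known NF-kB target. It stood at 6.77, 3.19, 4.00, 10.5, 6.63 and 1.78 RPKM in SPOPmut and at 2.04, 3.25, 3.49, 10.8, 6.06 and 1.20 RPKM in SPOPwt, from S0 to S5. Outside S0, mutant and control of a pair were close to each other, with differences of -0.035 to 0.34. Over all pairs the log2 difference of Birc3 was 0.32 (SE 0.18, limma adjusted p = 0.887), and 0.11 (SE 0.070) without S0. Tnfaip3, the ubiquitin-editing enzyme A20 that ends signalling, stood at 13.8 and 5.05 RPKM in the S0 mutant and control. It was lower in the mutant in S1, S2 and S3, with differences of -0.32, -0.26 and -0.14, and higher in S4 (0.17) and S5 (0.75). Its log2 difference was 0.25 (SE 0.21, limma adjusted p = 0.887), 0.040 (SE 0.15) without S0, and -0.14 without S0 and S5.

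The mean differences of the 2 other target genes had opposite signs. Tnfaip2, a gene induced by TNF, stood at 58.0, 36.2, 36.3, 58.8, 46.0 and 23.9 RPKM in SPOPmut and at 28.5, 39.5, 43.8, 72.0, 62.1 and 36.1 RPKM in SPOPwt, from S0 to S5. It was lower in the mutant in all of S1 to S5, by differences of -0.57 to -0.12, and higher in S0, by 1.00. Its log2 difference was -0.11 (SE 0.19, limma adjusted p = 0.925) with S0 and -0.33 (SE 0.075) without it, where limma gave an adjusted p of 0.456. That p ranged from 0.156 to 1 over the alternatives to the main fit. Icam1, an adhesion molecule for leukocytes, stood at 0.82, 0.30, 0.27, 1.57, 0.88 and 4.36 RPKM in SPOPmut and at 0.28, 0.48, 0.72, 1.12, 0.24 and 1.78 RPKM in SPOPwt. Its mutant library was the higher one in S0, S3, S4 and S5. With the filter set at 1 RPKM in at least 2 libraries, the log2 difference of Icam1 was 0.28 (SE 0.17, limma adjusted p = 0.862).

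**Figure D2:**
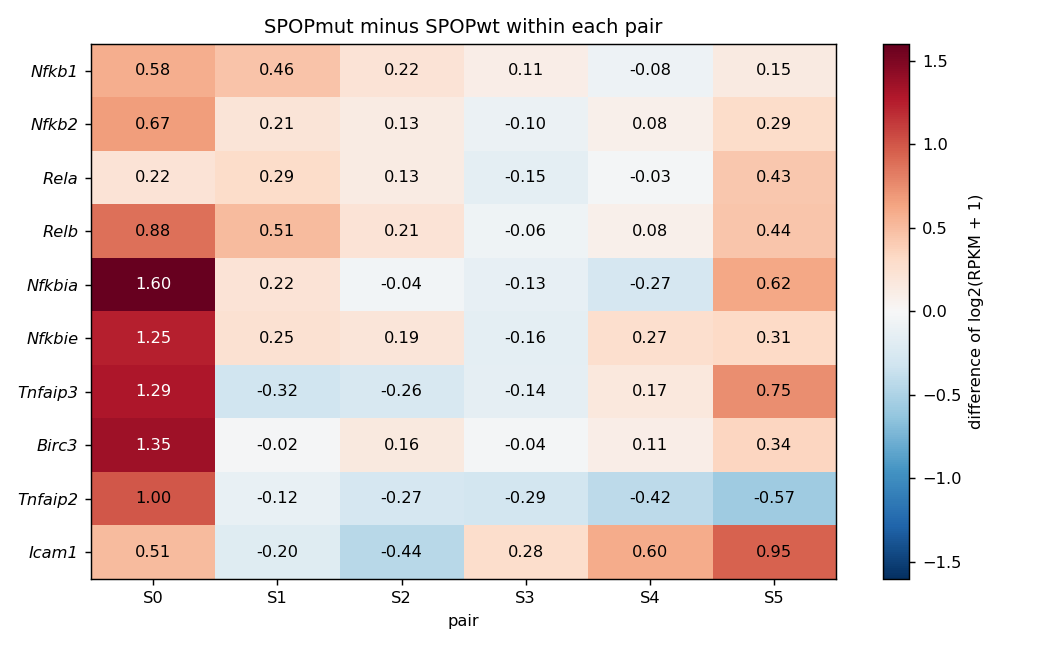
SPOPmut minus SPOPwt on the log2(RPKM + 1) scale for each of the 10 genes (rows) in each pair (columns). The number in a cell is the difference, red is higher in the mutant and blue is lower. The S0 column runs from 0.22 to 1.60, and Tnfaip2 is negative in S1 to S5.

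In pair S0 taken apart, the mutant was higher for all 10 genes, beside 49.2% of all genes tested. In S0, 5 of the 10 stood at a log2 difference of at least 1 (at least 2-fold on the log2(RPKM + 1) scale): Nfkbia (1.60), Birc3 (1.35), Tnfaip3 (1.29), Nfkbie (1.25) and Tnfaip2 (1.00). Among all genes tested, 4.15% stood that much higher in S0 and 3.21% that much lower, and none of the 10 was that much lower. Tnfaip2 lay just inside this limit and Relb (0.88) just outside. As plain ratios of RPKM, the S0 mutant was 3.10-fold its control for Nfkbia, 3.31-fold for Birc3, 2.74-fold for Tnfaip3, 2.62-fold for Nfkbie and 2.94-fold for Icam1. S0 is 1 library against 1, so these values have no replicate check and no test was made. The 10 genes were also chosen with earlier results of these data known, so the shares beside them are descriptions only. Mutant and control were also less alike in S0 than in the other pairs. Across genes, their deviations from the group means correlated by 0.0602 in S0 and by 0.753 to 0.954 in S1 to S5. By level over the genes tested, the S0 control correlated by 0.9435 with the S0 mutant. With the libraries of S1 and S2 it correlated by 0.9813 to 0.9838. The S0 mutant correlated by 0.9672 with the S4 mutant and by 0.967 with the S2 control. How far the S0 differences reflect genotype alone was not tested.

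The median difference of the 10 genes in S0 was 0.94, beside -0.0097 for all genes tested. For 8 of the 10 genes the S0 difference lay above those of all other pairs, the exceptions being Rela and Icam1, and for none did it lie below. S0 stood apart for many genes: 32.6% of all genes tested had an S0 difference above the other 5 pairs and 35.8% had one below. The libraries of S0 were therefore also set beside the 8 libraries of S1 to S4. The S0 control was below all 8 for 8 of the 10 genes, again all but Rela and Icam1, beside 28.6% of all genes tested. The S0 mutant was above all 8 for 2 of the 10, Nfkb2 and Nfkbia, beside 6.21% of all genes tested. For Birc3, Nfkbie, Tnfaip3 and Tnfaip2 the S0 mutant thus lay inside the range of S1 to S4, and the S0 control outside it.

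Other markers moved within S0 as well. The 11 immune markers summed to 21.8 RPKM in the S0 mutant and 10.7 RPKM in its control, mostly Cd14, a co-receptor for lipopolysaccharide, at 16.1 and 5.34 RPKM, while Ptprc was under 0.1 RPKM in both. The luminal epithelial markers summed to 139 and 38.6 RPKM, led by the keratin gene Krt18 at 89.6 and 17.9 RPKM. Krt8 (21.5 and 4.45 RPKM), Krt19 (26.8 and 16.0) and Cdh1 (0.99 and 0.26) were also higher in the mutant, while Epcam was at 0.015 and 0.013 RPKM. The mesenchymal markers summed to 824 and 908 RPKM, with the single genes unlike each other. Pdgfra (10.4 and 3.64 RPKM), Pdgfrb (34.4 and 15.4) and Dcn (39.5 and 11.7) were higher in the mutant, and Vim (361 and 525) was lower. The basal markers summed to 2.67 and 0.92 RPKM. The part of these differences in the NF-kB values was not tested.

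In the other pairs none of the 10 genes reached a difference of 1 on the log2(RPKM + 1) scale, in either direction. Among all genes tested, 0.257% stood at least that much higher in S1, 0.0221% in S2, 0.0294% in S3, 0.301% in S4 and 0.301% in S5. The shares at least that much lower were 0.412% in S1, 0.0515% in S2, 0.176% in S3, 0.125% in S4 and 0.309% in S5. Icam1, the gene of lowest level, is the one that scale shrinks most: as plain ratios of RPKM its mutant was 3.65-fold its control in S4, 2.46-fold in S5 and 0.375-fold in S2. In S5 the mutant was higher for 9 of the 10 genes, all but Tnfaip2, beside 49.5% of all genes tested. The median of the 10 in S5 was 0.38, beside -0.00057 for all genes tested, and the largest differences in S5 were those of Icam1 (0.95), Tnfaip3 (0.75) and Nfkbia (0.62). In S1, S2 and S4 the mutant was higher for 6 of the 10, beside 58.9%, 65.7% and 42.0% of all genes tested. In S3 it was higher for 2 of the 10, Nfkb1 and Icam1, beside 51.3%, and the median of the 10 was -0.12.

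In pair S5, whose markers were epithelial, several of the 10 genes stood below their level in the other pairs. S5 was singled out with earlier results of these libraries known, and it is 1 pair, so its values are given as a description without a test. Both S5 libraries were below all 10 libraries of S0 to S4 for 5 of the 10 genes (Nfkb1, Nfkb2, Rela, Nfkbie and Birc3), and above all 10 for Icam1. Among the 15508 genes at 1 RPKM or more in at least 2 libraries, 27.0% lay below in this way and 24.9% above. The count of genes above was thus under the background and the count below over it, each by few genes. With quantile normalization the count below was 4. The filter admits genes through the S5 libraries alone, which can raise the background share above.

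Nfkbie stood furthest down in S5, with a mean of 1.05 RPKM against 12.2 RPKM in S0 to S4, or 8.56% of that level. Birc3 had a mean of 1.49 RPKM in S5 and 5.68 RPKM in S0 to S4 (26.3%), and Nfkb1 one of 14.9 and 35.6 RPKM (41.9%). Nfkb2 stood at 58.2% and Rela at 72.6% of the S0 to S4 mean. For Rela the S5 mutant, at 38.7 RPKM, lay close below the lowest other library, at 41.2 RPKM, and the S5 control lay at 28.5 RPKM. Nfkbia, at 50.5% of the S0 to S4 mean, fell outside this count because its S5 mutant (32.9 RPKM) was above the S0 control (29.7 RPKM). Without S0, both S5 libraries were below the other 8 for 7 of the 10 genes, beside 29.4% of the 15508, and above them for 1, beside 26.2%.

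Icam1 was 4.60-fold higher in S5 than in S0 to S4 by the means (3.07 against 0.67 RPKM). The lower S5 library, the control at 1.78 RPKM, was above the highest other library, the S3 mutant at 1.57 RPKM, by a small margin. Relb (82.2%) and Tnfaip3 (95.2%) were close to their S0 to S4 means in S5, and Tnfaip2 was at 62.3%. For these 3 genes the S5 libraries did not both lie outside the range of the others.

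**Figure D3:**
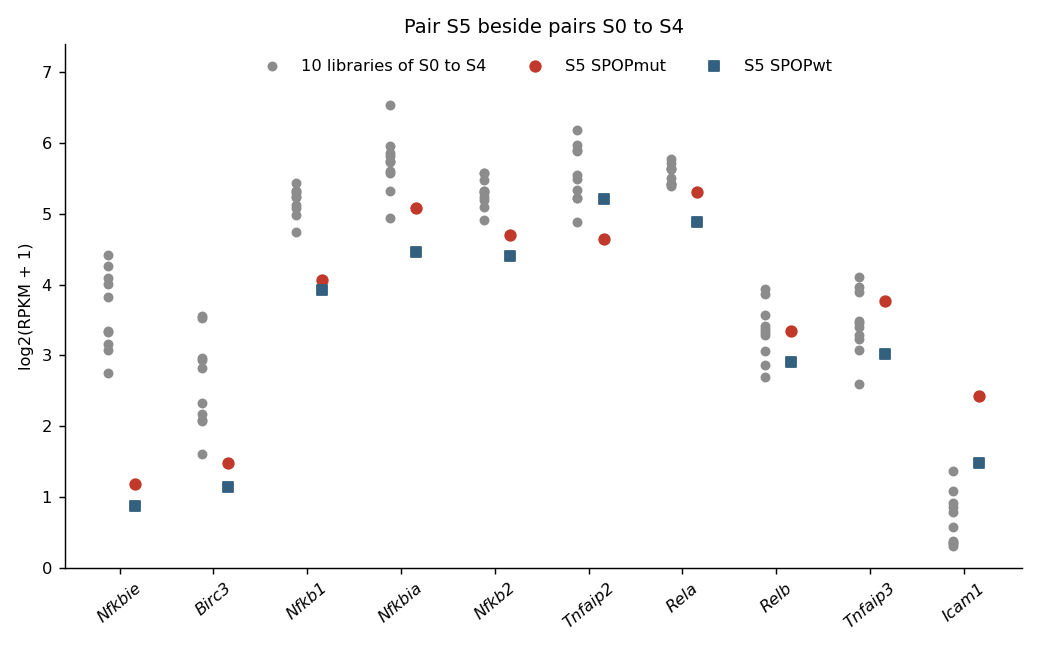
Level of the 10 genes as log2(RPKM + 1) (vertical axis), ordered by the difference between S5 and the other pairs. Grey points are the 10 libraries of S0 to S4, the red circle is the S5 mutant and the blue square the S5 control. Nfkbie and Birc3 are lowest relative to the other pairs, and Icam1 is above them.

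Within S0 to S4, all 4 libraries of S3 and S4 were above all 4 of S1 and S2 for Nfkbie, Birc3 and Tnfaip2, and below them for Nfkbia. Of all genes tested, 26.6% lay above in this way and 27.4% below, so the counts of 3 and 1 of 10 were near and under those shares. Over the 10 libraries of S0 to S4, Nfkbie and Birc3 had the highest Pearson correlation of any 2 of the 10 genes, 0.98, and Nfkb2 and Relb had 0.94. Over the 8 libraries of S1 to S4 both correlations were 0.97. Nfkbia and Nfkbie correlated by 0.25 over the 10 libraries and by -0.60 over the 8, so the sign rested on S0. Libraries of a pair may share their source, which is not labelled, so these correlations are descriptions.

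The genes outside the list whose profile was most like the mean standardized profile of the 10, over the 10 libraries of S0 to S4, were Per1 (Pearson correlation 0.98), Raet1e (0.98), Bbs2 (0.98), Maf1 (0.97) and Dyrk1b (0.97). Over the 8 libraries of S1 to S4 the values were 0.97, 0.97, 0.95, 0.92 and 0.90. They were picked as the highest of all genes tested, so high values follow from the choice. The mean profile was highest in the S3 control and lowest in the S0 control.

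Other genes of the pathway, 81 in a list grouped by role, were read from the same fit. That list too was chosen with earlier results of these data known, so its shares are descriptions only. Of the 63 that passed the filter on level, limma called 0 at an adjusted p under 0.05, and 5 had an unadjusted p under 0.05, beside 5.60% of all genes tested. Their median difference between SPOPmut and SPOPwt was 0.064, beside 0.00055 for all genes tested. In S0 their median difference was 0.31, beside -0.0097 for all genes tested. In S0, 17 of the 63 were at least 2-fold higher, beside 4.15% of all genes tested, and 0 were at least 2-fold lower, beside 3.21%. The S0 difference lay above the other pairs for 36 of the 63, beside 32.6%, and below for 10, beside 35.8%.

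Ligands were nearly absent from S0 to S4, and none of the 8 in the list passed the filter. Il1a, the cytokine interleukin 1 alpha, stood at 143 RPKM in the S5 mutant and 182 RPKM in the S5 control, and in S0 to S4 it did not exceed 0.18 RPKM. Tnf stood at 4.50 and 1.61 RPKM in S5 and did not exceed 0.14 RPKM in S0 to S4.

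Of the 11 receptors, 9 passed the filter on level. For Tlr3, a sensor of double-stranded RNA, the mutant exceeded its control in 6 of 6 pairs, and the log2 difference was 0.31 with an SE of 0.087 and a limma adjusted p of 0.871. The level of Tlr3 was 10.7 to 14.3 RPKM in S5 and 1.04 to 3.23 RPKM in the other pairs. Tlr2, a sensor of bacterial lipoproteins, had the largest S0 difference upward, 1.21, and Tnfrsf12a, the receptor of the cytokine TWEAK, the largest downward, -0.94. Tnfrsf1b, the second TNF receptor, stood at 0.62 to 0.65 RPKM in S5, where the other pairs had 16.3 to 32.15 RPKM.

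Adaptors and kinases, 20 of 21 tested, had a median S0 difference of 0.10, with Ikbke, an inducible kinase related to the IkB kinases, the largest at 1.35. Ikbke was lower in the mutant in all other pairs. Ikbkb, the kinase that marks the inhibitor for breakdown, differed by 0.54 in S0. Map3k14, the kinase of the non-canonical pathway, and Traf2, an adaptor of TNF receptors, had the smallest p-values of this list, with log2 differences of 0.12 (SE 0.064) and 0.11 (SE 0.058), and a limma adjusted p of 0.887. In S5, Map3k14 stood at 1.25 to 1.49 RPKM and the adaptor Traf5 at 0.25 to 0.27 RPKM, against 4.15 to 5.74 and 3.90 to 6.95 RPKM in S0 to S4.

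Of the other subunits and inhibitor-like proteins, 5 of 6 were tested, and their median S0 difference was 0.018. Rel, the subunit best known from lymphocytes, was low, at 1.82 to 4.01 RPKM over all libraries, and differed by 0.058 (SE 0.081), or by -0.0015 without S5. Nfkbil1 differed by 0.059 (SE 0.068), or by 0.028 without S5, and had 9.89 to 11.6 RPKM in S5 and 5.66 to 7.61 RPKM elsewhere. The atypical inhibitor genes Bcl3 and Nfkbiz had S0 differences of 0.53 and 0.47.

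Ubiquitin regulators, 10 of 11 tested, had a median S0 difference of 0.47, with 3 at least 2-fold higher, beside 4.15% of all genes tested. Tnip3 (2.16) and Tnip2 (1.34), whose products bind the A20 enzyme, had the largest. Tnip1, of the same family, and the deubiquitinase gene Cyld had the smallest p-values, with log2 differences over all pairs of 0.26 (SE 0.11, limma adjusted p = 0.886) and 0.16 (SE 0.079, limma adjusted p = 0.887). The difference of Tnip1 was 0.15 without S0, and that of Cyld was 0.094 without S5. The level of Cyld was 13.4 to 19.5 RPKM in S5 and 5.49 to 6.56 RPKM in the other pairs. Rbck1, a subunit of the linear ubiquitin ligase, stood at 22.0 to 24.1 RPKM in S5 and 9.74 to 15.6 RPKM elsewhere.

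The other target genes, 19 of 24 tested, had the highest median S0 difference of these lists, 1.60, and 12 of the 19 were at least 2-fold higher there, beside the same 4.15%. Their median of the mean difference over S1 to S5 was 0.0025. Cxcl2, a chemokine gene, stood at 74.3 RPKM in the S0 mutant and 5.59 RPKM in the S0 control. Saa3, an acute-phase gene, stood at 114 and 9.74 RPKM there, and reached 1186 RPKM in the S3 control. Vcam1, an adhesion molecule gene, and Cxcl10, a chemokine gene, had the smallest p-values, with log2 differences of 0.61 (SE 0.25, limma adjusted p = 0.886) and 0.40 (SE 0.15, limma adjusted p = 0.881). The difference of Vcam1 was 0.30 without S0, and that of Cxcl10 was 0.26 without S5. Cxcl10 differed by -0.0025 in S0 and by 0.071 to 1.10 in the other pairs. The chemokine genes Ccl2 and Cxcl1 had the largest contrasts with S5: Ccl2 had 0.42 to 0.44 RPKM in S5 and 197 to 992 RPKM in the other pairs, and Cxcl1 had 310.5 to 330.0 RPKM in S5 and 0.22 to 4.19 RPKM in the others.

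**Figure D4:**
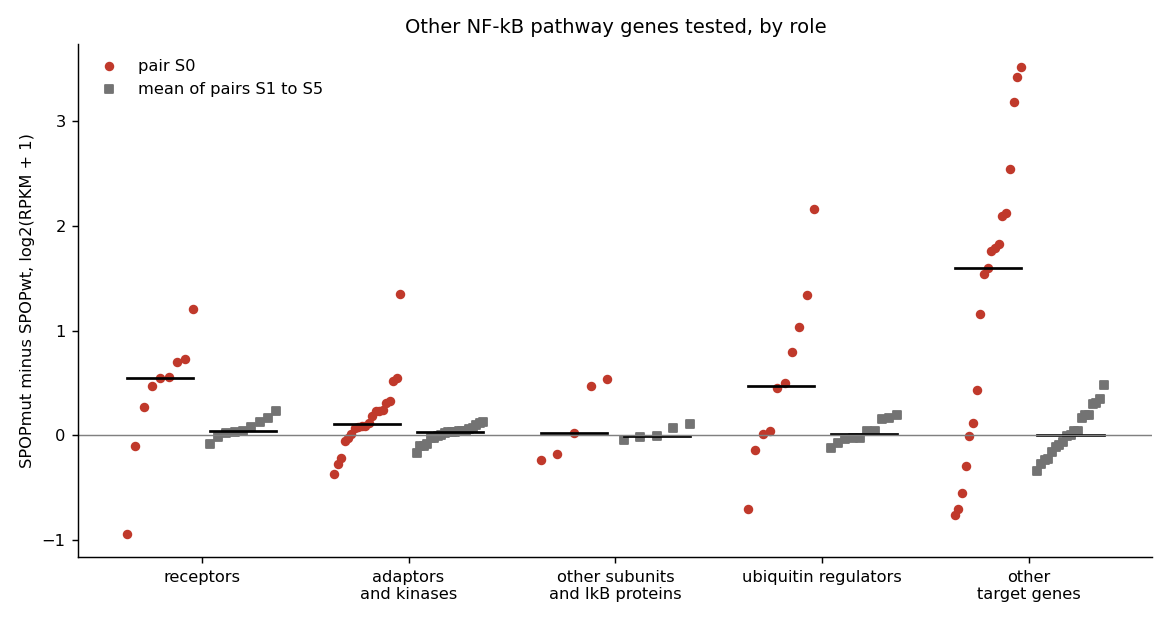
SPOPmut minus SPOPwt on the log2(RPKM + 1) scale (vertical axis) for the 63 other pathway genes tested, by role (horizontal axis). Red circles are pair S0, grey squares the mean of pairs S1 to S5 for the same genes, and black bars the medians. Target genes have a median of 1.60 in S0 and 0.0025 over S1 to S5.

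In GRCm38, by GENCODE M21, the genes lie on chromosome 3 at 135584655 to 135691547 (Nfkb1), chromosome 19 at 46304320 to 46312385 (Nfkb2) and 5637483 to 5648130 (Rela), and chromosome 7 at 19606217 to 19629438 (Relb). Nfkbia lies on chromosome 12 at 55489410 to 55492647, Nfkbie on chromosome 17 at 45555703 to 45563169, Tnfaip3 on chromosome 10 at 19000910 to 19015657 and Birc3 on chromosome 9 at 7848699 to 7873186. Tnfaip2 lies on chromosome 12 at 111442469 to 111455018 and Icam1 on chromosome 9 at 21015985 to 21028817. Exons of Nfkb2, Tnfaip2 and Icam1 overlap exons of genes on the opposite strand; the partners are AC114539.1 and Psd for Nfkb2, Gm40578 for Tnfaip2 (314 bases) and Gm47079 for Icam1 (511 bases). The kit does not mark strand, so reads in those stretches cannot be assigned to one gene or the other.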

How the data were processed

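RNA of 6 SPOPmut and 6 SPOPwt organoid libraries was sequenced as paired reads on a HiSeq 2500. Each library has a deposited file of RPKM per gene name, the unit being that of the file name. STAR 2.4.0j, mm10 and GRCm38 appear in the submitters' processing notes; how reads were counted, and on which annotation, is not given in the sources used here. Tables and figures were made in Python 3.11.15 (numpy 2.4.6, pandas 2.3.3, matplotlib 3.10.9, scipy 1.17.1) and models in R 4.3.3 (limma 3.58.1).

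limma fitted pair and genotype to log2(RPKM + 1), with a pseudocount of 1 and a trended and robust prior, for the 13600 genes at 1 RPKM or more in at least 6 libraries, two-sided. It was tested on simulated data that gave each gene the same spread in every pair, which does not hold for S0 here. The genes and lists were chosen with earlier results of these data known. Named genes were the 10 members, and by role list the 2 of smallest p, the 2 largest in S0 and the 2 largest in S5, then the 5 most like the mean profile and the leading gene of each cell type list in S5 and in S0 to S4. Ptprc, Cd68, Csf1r, Epcam, Krt8, Cdh1, Pdgfra, Pdgfrb, Dcn and Vim were picked after their values were seen.

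Pairing came from the labels. Across genes, the deviations of mutant and control from their group means correlated by 0.753 to 0.954 within pairs S1 to S5 and by 0.0602 within S0. No batch is labelled. The 2 most alike libraries of a group, the S1 and S2 controls, had a median chi-square of 1.191 per gene. The S1 and S2 mutants followed at 2.082, and the next value was 7.881, for the S0 and S2 controls. These values rest on approximate reads at the estimated depth and cannot show whether 2 libraries are independent. None were merged, and S1 and S2 were kept as 2 pairs.

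For depth, the step between low values was combined with GENCODE exon lengths, which 91.0% of the names (39342) had. Of values up to 20 reads, 40.3 to 43.1% lay within 0.04 of a multiple of 0.5 reads, where 16% would by chance, so whole reads were not recovered, and neither a count test nor a counting interval was possible. A step may be a read or a read pair. A doubled step gives the same spacing, so depth was searched within a chosen range, and its scale rests on that range.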

Additional observations from a re-analysis of the deposited data

Results flagged for a closer look

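In sets of 6 values, the extreme one was set against the gap to its nearest neighbour divided by the whole range (Dixon's criterion, 0.625 for 6 values). Chance alone marks about 1 set in 20. For the 10 members 5 of 30 sets were marked, and with the differences of the 26 named pathway genes added, 12 of 56. That chance rate does not apply to the pathway genes, most of which were named for a large value in S0 or S5, and S0 and S5 were set apart with earlier results known.

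In SPOPmut, Nfkb1 at 15.7 RPKM in S5 stood below the other 5 libraries (36.7 to 42.4), and Icam1 at 4.36 RPKM in S5 stood above them (0.27 to 1.57). The S0 differences on log2(RPKM + 1) stood apart for Nfkbie (1.25, other pairs -0.16 to 0.31), Birc3 (1.35, others -0.035 to 0.34) and Tnfaip2 (1.00, others -0.57 to -0.12).

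Among the pathway genes the S0 difference stood apart for Cxcl2 (3.51, other pairs -0.47 to 0.15), Saa3 (3.42, others -0.85 to 0.65), Vcam1 (2.12, others -0.067 to 0.49), Cxcl1 (2.09, others -0.57 to -0.087), Ikbke (1.35, others -0.30 to -0.010) and Tnip2 (1.34, others -0.21 to 0.31). For Tnf the S5 difference stood apart (1.08, others 0 to 0.082).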

How the results depend on the processing

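No gene of the 13600 was called with the pair as a block or with no replicate block (0 higher and 0 lower), nor under the other alternatives except pair weights, which called 7 genes higher and 2 lower. No member was called by limma under any of the 15 alternatives. Without pairs S0 and S5 together the differences of Nfkbia (-0.056) and Tnfaip3 (-0.14) turned below 0, as did that of Tnfaip3 with pair weights (-0.11); the signs of the other 7 members tested held. Leaving out each of S1 to S5 in turn kept 8 members with the S0 difference above the rest. That count cannot fall when a pair is left out, so it does not measure stability. The count of 5 members at least 2-fold higher in S0 was 4 with median ratio scaling and 6 with a pseudocount of 0.1. The count of 5 members lowest in both S5 libraries was 7 without S0 and 4 with quantile normalization. With that pseudocount 1 member passed 2-fold downward in S2, 1 upward in S4 and 1 upward in S5, and a limit of 1.5-fold gave 1 in S4 and 3 in S5, where the main count was 0. The median difference of all genes moved by under 0.1 with every scaling. Low levels limit Icam1 most, at about 40 reads in its lowest library by the estimated depth.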

Other observations

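Some pathway genes not yet described, chosen after their values were seen, had high contrasts. In S0 the chemokine gene Cxcl5 stood at 289 RPKM in the mutant and 31.0 RPKM in the control, the complement gene C3 at 182 and 52.1, the early response gene Ier3 at 108 and 36.5 and the cytokine gene Lif at 33.0 and 8.56. In the other direction, the growth factor gene Csf1 stood at 53.6 and 79.0 RPKM there and the stress gene Gadd45b at 12.8 and 22.4. In S5 the colony-stimulating factor gene Csf2 stood at 39.1 and 33.7 RPKM in mutant and control, and in S0 to S4 it did not exceed 5.66 RPKM.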
